A study of Mus musculus with 4 samples.

Results

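The m6A writer complex and the m6A erasers were examined as targets of the mark they set and remove, in mouse spinal cord after nerve injury. The 10 genes were *Wtap*, *Zc3h13*, *Rbm15*, *Rbm15b*, *Cbll1*, *Mettl3*, *Mettl14*, *Mettl16*, *Fto* and *Alkbh5*, out of 13558 gene names in the deposited tables. Their peaks were taken by gene name from 3 tables, and a gene with no row was counted as having no peak. In this way 8 of the 10 genes had peaks, with 24 of the 33556 rows of the CCI list, 27 of the 34406 rows of the sham list and 9 of the 4812 rows of the differential table. Spinal cords were taken 7 days after surgery from C57BL/6J animals of 6 to 8 weeks. In the CCI group the sciatic nerve had been tied loosely with silk (chronic constriction injury), and in the sham group the same surgery was done with no ligature. The labels name no transgene and no drug for either group. MeRIP-seq compared poly(A) RNA fragments pulled down with an antibody against m6A (IP) with the fragments before pulldown (input), with 1 IP and 1 input library per group. The depth of the libraries is unknown, since the tables hold no read counts. How many mice stood behind a library, and which spinal segments or side were taken, is not given in the labels. No difference between CCI and sham therefore had a replicate check, and the ratios below describe these libraries only.

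m6A is a methyl group on adenosine inside mRNA, found mostly near stop codons, in 3′-UTRs and in long exons. A core of METTL3, which holds the catalytic site, and METTL14, which helps to bind the RNA, sets the mark. Regulatory subunits place this core: WTAP anchors it, VIRMA and ZC3H13 hold the complex together in the nucleus, RBM15 and RBM15B bring it to RNA, and CBLL1 (HAKAI) is a ubiquitin ligase bound to WTAP. METTL16 works apart from this complex on structured RNAs such as the *Mat2a* mRNA. FTO and ALKBH5 are oxygenases that take the methyl group off, and FTO also acts on the cap-adjacent m6Am.

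Sites near the start of a transcript are shown by their sequence for *Rbm15* and *Rbm15b*, the members whose start window lay at least in part under a peak in both lists. A start window (250 bases before to 50 after the RefSeq start, GRCm38.p6) was at hand for 9 of the 10 genes. With peaks of any name counted, the *Rbm15b* window had 300 of its bases under sham peaks and 224 under CCI peaks. The CCI bases lay under a row named *Manf* (106886681 to 106887249), and no CCI row named *Rbm15b* reached the window. The *Rbm15* window had 15 bases under the sham peak and 45 under the CCI peak, all downstream of the RefSeq start used for it. The RefSeq span of *Rbm15* reached farther upstream, to 107334460. The windows of the other members had 0. The sites below are the 5-base matches to the m6A consensus that lay under a peak in both lists, in capitals with their flanks in lower case, from RefSeq, minus strand.
Rbm15 (chr3:107333240-107333268): gcggagctacagcctggcgcgagGAACCg
Rbm15b (chr9:106887170-106887198): aggcagcgagcgAAACTctcggcccgccc
The consensus searched was A, G or T, then A or G, then AC, then A, C or T. The *Rbm15* match began 44 bases after the RefSeq start used for its window. The *Rbm15b* match began at position -111 from its RefSeq start, upstream of it but inside the longer transcript that the deposited tables give to *Rbm15b*. A match was held by 98.4% of all 32851 start windows on the transcript strand and by 98.5% on the other strand, so the letters alone describe the site and do not mark these genes out.

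The strength of a peak is given as the deposited fold enrichment, the ratio of IP over input inside the peak. For the CCI list as a whole the median fold enrichment was 5.72, and for the sham list 5.70. Over the members' peaks it was 6.88 in CCI, with 15 of 24 above the median of the list, and 7.55 in sham, with 16 of 27 above it. The members with peaks had 1 to 6 rows each in CCI and 2 to 5 in sham, beside a median of 2 rows per gene name in either list. Of the markers of spinal cord and its cell types, 19 of 21 had a peak in each list, *Hoxc9* and *Nefl* being the exceptions. A peak shows a marked RNA and not its level.

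**Figure D1:**
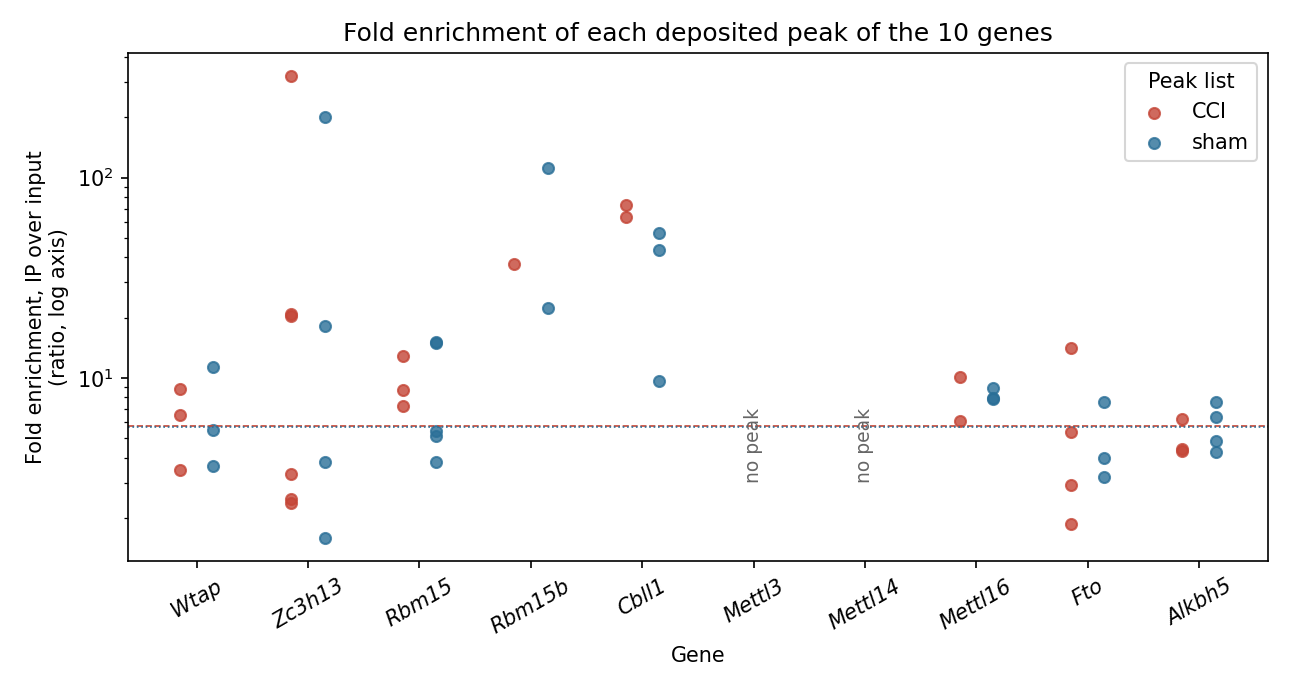
Fold enrichment of IP over input (log axis) of each peak named for one of the 10 genes, 1 point per row of the CCI or sham list, with the median of all peaks of each list as a dashed (CCI) or dotted (sham) line. *Zc3h13* holds the highest values (321 in CCI and 201 in sham), and *Mettl3* and *Mettl14* have no peak.

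The catalytic core had no peak. *Mettl3* and *Mettl14* had 0 rows in the CCI list, the sham list and the differential table. No row of any other name lay inside their RefSeq spans either (chromosome 14, 52294841 to 52308741, and chromosome 3, 123368295 to 123385990, GRCm38.p6). The row nearest to *Mettl3* belonged to its neighbour *Tox4*, 2.75 kb away in CCI and 2.72 kb away in sham, and the row nearest to *Mettl14* to *Sec24d*, 74.5 kb away in both. By contrast, each of the 5 regulatory subunits, *Mettl16* and both erasers had peaks in both lists. Over all protein-coding RefSeq genes, 54.9% had a row in either list, so a gene without a peak was common, and without read counts an unmarked RNA cannot be told apart from one with too few reads.

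*Zc3h13* (ENSMUSG00000022000, chromosome 14) had the strongest peaks of the group. The largest sham peak joined 7 exonic blocks from exon 11 of 19 onwards, 75324540 to 75337462, with 2717 bp and a fold enrichment of 201, higher than 99.5% of the sham peaks. In CCI the same stretch was called as 2 peaks. The first, 75324569 to 75330941, held 1614 bp at 321, above 99.8% of the CCI peaks, and the second, 75331179 to 75337462, held 837 bp at 20.4. Together they covered 90.2% of the sham bases. Upstream, a sham peak of 717 bp (75315941 to 75323494, fold enrichment 18.1) was likewise met by 2 CCI peaks of 299 bp each, at 3.30 and 20.8. At the end of the gene, a peak starting at 75339469 stood at 3.81 in sham and 2.37 in CCI. Over these stretches the lists shared most of their bases and cut them differently. A CCI peak in exon 5 (150 bp, 2.49) and a sham peak in exon 10 (60 bp, 1.58) had no partner.

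*Rbm15b* (ENSMUSG00000074102, chromosome 9), which has a single coding exon, showed what a gene name can hide. By name it had 1 CCI peak and 2 sham peaks. The larger sham peak ran from 106884233 to 106887428, at the transcript start, with 3196 bp and a fold enrichment of 112, above 98.8% of the sham peaks. It was in none of the 20 pairs of the members. By position, the CCI row named *Rbm15b* lay inside it, and 4 more CCI peaks overlapped it under the name *Manf*, whose annotated span runs across *Rbm15b*. Their fold enrichments were 34.4 (106886681 to 106887249), 30.8 (106885726 to 106886532), 19.3 (106884711 to 106885606) and 15.3 (106884203 to 106884561). With the CCI row named *Rbm15b* they covered 81.8% of the bases of the sham peak. The row that both lists did name *Rbm15b*, 106884751 to 106885619 with the same 682 bp in each, stood at 37.2 in CCI and 22.2 in sham.

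*Cbll1* (ENSMUSG00000020659, chromosome 12) carried its mark in one place near its 3′ end. A row of 382 bp with the same borders in both lists (31487280 to 31487889) stood at 73.2 in CCI and 53.1 in sham. A second row over the same bases was longer in CCI (988 bp, 63.8) than in sham (629 bp, 43.5), where most of the remaining bases formed a peak of their own (31487968 to 31488297, 9.69). The 4 rows that start at 31487280 were annotated to exon 1 of 3 of another gene, ENSMUSG00000099851, and the separate sham peak to exon 6 of 6 of *Cbll1*, so the reads of these genes cannot be told apart here. Whether strand was used when peaks were counted is not given in the sources used here.

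*Rbm15* (ENSMUSG00000048109, chromosome 3) had 3 CCI and 5 sham peaks, all in its long first exon or its 5′-UTR. The widest, 869 bp in each list, stood at 12.8 in CCI and 15.0 in sham. The 5′-UTR peak stood at 8.69 in CCI (107333074 to 107333284) and 15.1 in sham (107333045 to 107333254). The remaining site, starting at 107330291, went the other way, with 7.21 in CCI and 5.10 in sham. The 2 sham peaks without a partner were short, 121 bp at 5.42 and 90 bp at 3.78.

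*Wtap* (ENSMUSG00000060475, chromosome 17) had 3 peaks in each list, and each had a partner. The peak from 12975011 to 12980866 had the same 509 bp in both lists and stood at 8.79 in CCI and 11.3 in sham. The neighbouring 3′-UTR peak (12974652 to 12974861) stood at 3.47 in CCI and 3.62 in sham. The peak nearest the gene end stood at 6.54 in CCI, where it was annotated in the 3′-UTR, and at 5.46 in sham, where it was 30 bp shorter and annotated in exon 8 of 8. As log2 ratios of CCI over sham, the *Wtap* pairs lay no farther than 0.36 from 0, while each other regulatory subunit had a pair farther out.

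**Figure D2:**
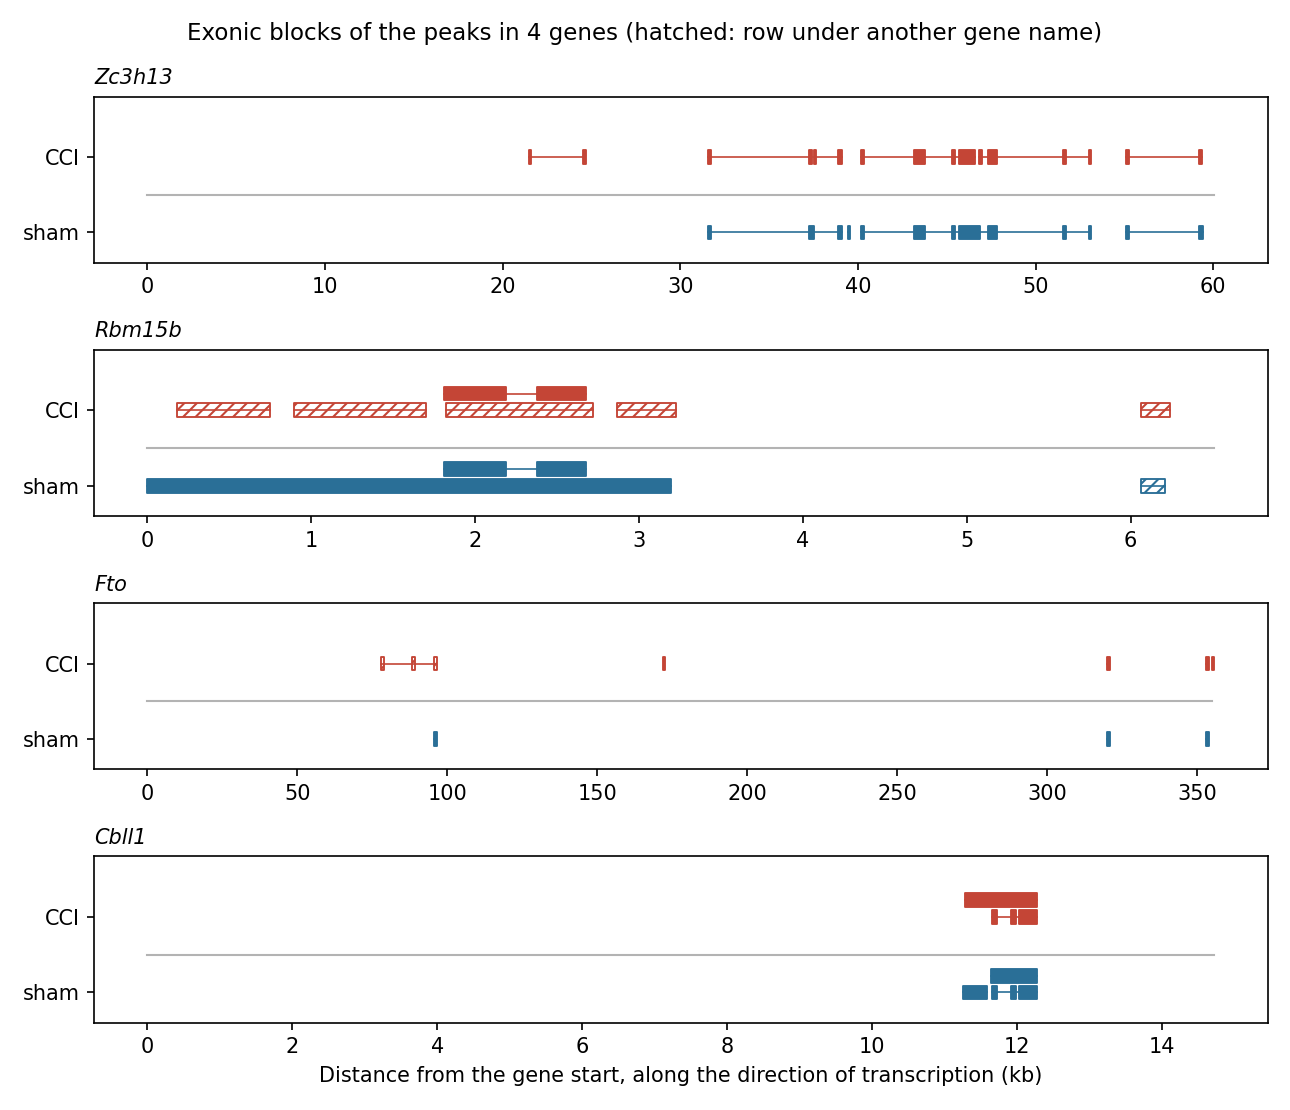
Exonic blocks of the CCI (upper) and sham (lower) peaks inside 4 genes, in kb from the gene start along the direction of transcription, with thin lines joining the blocks of 1 peak, overlapping peaks stacked, and very short blocks widened to stay visible. Hatched blocks are rows that the tables give another gene name. In *Rbm15b* the single sham block of 3196 bp is met by 4 hatched CCI blocks, and in *Zc3h13* the sham peak of 2717 bp is met by 2 CCI peaks.

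*Mettl16* (ENSMUSG00000010554, chromosome 11) was marked only in 3′-UTRs, at 2 sites in CCI and 3 in sham. The site with CCI borders 74817256 to 74817706 stood at 10.1 in CCI and 8.86 in sham, and the next one, 74818395 to 74818605 in CCI, at 6.11 in CCI and 7.96 in sham.
A sham peak farther downstream, 74827986 to 74828405 with 420 bp and a fold enrichment of 7.84, had no CCI partner. This peak ended 120 bp before the end of the deposited gene span, and lay beyond the RefSeq end of 74826855. It was the longest member peak without a partner in either list.

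*Fto* (ENSMUSG00000055932, chromosome 8), whose introns make it by far the longest span among the members, had 4 CCI and 3 sham peaks. Its 3′-UTR peak, 91666522 to 91666821 with the same 300 bp in both lists, stood at 5.35 in CCI and 4.00 in sham. The highest value under its name, 14.1 in CCI and 7.55 in sham, came from 179 bp (91633584 to 91633762) annotated to the only exon of another gene, ENSMUSG00000110325, inside the *Fto* span. In exon 3 of 9, the sham list held a peak of 570 bp at 3.20. The CCI list held the same bases at 2.76 in a row named *Gm45427*, although that row was annotated to exon 2 of *Fto*. Counted by name alone, exon 3 of *Fto* would have no peak in CCI. The 2 CCI peaks without a partner were 61 bp each, at 1.86 and 2.90.

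*Alkbh5* (ENSMUSG00000042650, chromosome 11) had 3 CCI and 4 sham peaks. In its exon 1 of 4 the fold enrichment was 4.32 in CCI and 4.86 in sham. In the 3′-UTR, the peak that starts at 60547739 stood at 6.25 in CCI and 4.27 in sham. The one starting at 60557883, near the gene end, went the other way, with 4.39 in CCI and 7.55 in sham. A sham peak of 61 bp, 120 bp from the deposited gene start (6.39), had no partner and lay upstream of the RefSeq start at 60537683. Over both erasers the fold enrichment lay between 1.86 and 14.1 in CCI and between 3.20 and 7.55 in sham.

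The design compared the injured with the sham group. Of the members' peaks, 3 of 24 in CCI and 5 of 27 in sham had no partner that shared at least 1 bp of exonic sequence. Over all peaks these shares were 12.3% in CCI and 16.1% in sham, so the members (12.5% and 18.5%) stood near the background. Of these 8 peaks, 7 were no longer than 150 bp.

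The partners formed 20 pairs, in which each peak was the other's best match. Of these, 10 were higher in CCI and 10 lower, with a median log2 ratio of CCI over sham of 0.06 (middle 50% from -0.37 to 0.51). Over all 27380 pairs, the median was 0.03 (-0.37 to 0.43). With a fold of 2 required (absolute log2 ratio of at least 1), 0 member pairs were higher in CCI and 1 was lower, beside 8.59% higher and 7.25% lower over all pairs. The lower one was the upstream *Zc3h13* site at -2.46. It rested on a tie, since both CCI peaks shared 299 bp with the sham peak, and with the other one the log2 ratio was 0.20 and 0 pairs were lower by that fold. The 12 pairs of the regulatory subunits had a median of 0.10 (6 higher and 6 lower in CCI) and the 6 pairs of the erasers 0.12 (3 and 3).

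In 6 pairs the borders were the same in both lists, so that the length of the peak did not differ. These log2 ratios were 0.90 and 0.42 in *Fto*, 0.74 in *Rbm15b*, 0.46 in *Cbll1*, and -0.06 and -0.36 in *Wtap*. Their median of 0.44 stood beside 0.07 over the 5237 such pairs of all genes, whose middle 50% ran from -0.24 to 0.40. Of the member values, the 0.90 in *Fto* and the 0.46 in *Cbll1* came from rows annotated to exons of other genes (ENSMUSG00000110325 and ENSMUSG00000099851). The bases behind the 0.74 in *Rbm15b* also lay inside the sham row at 112 and overlapped a CCI row named *Manf* at 19.3, so their ratio depends on the rows compared. Among pairs with unequal borders, the most negative after *Zc3h13* at -2.46 were the 5′-UTR of *Rbm15* at -0.80 and the end of *Alkbh5* at -0.78.

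**Figure D3:**
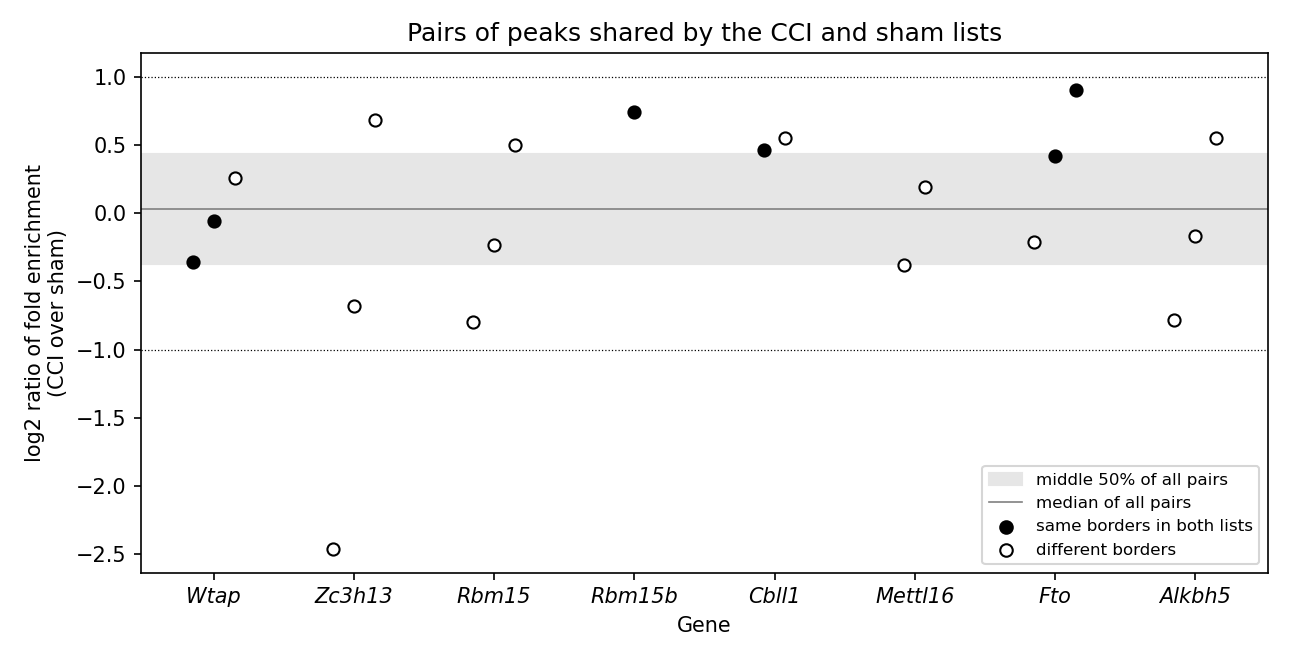
Log2 ratio of fold enrichment (CCI over sham) of the 20 pairs of peaks of the 8 genes with peaks, 1 point per pair, filled where the borders were the same in both lists. The grey band is the middle 50% of all 27380 pairs (-0.37 to 0.43), the grey line their median (0.03), and dotted lines mark 1 and -1. The points lie 10 above and 10 below 0.

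The authors' differential table held 9 rows in 6 of the 10 genes. Over all gene names 25.3% had such a row, and over names with at least 3 rows in the peak lists, as each of the 8 genes had, 33.9%. With 1 library per group the error of this count cannot be estimated, and the table's own columns of change were not used. *Zc3h13* had 3 of these rows, *Cbll1* had 2 that overlap each other, and *Wtap*, *Rbm15b*, *Mettl16* and *Fto* had 1 each. In the peak lists the higher group differed from row to row. CCI was higher at the 3′-UTR of *Fto* (5.35 against 4.00) and at *Cbll1* (73.2 against 53.1), the latter in peaks annotated to an exon of ENSMUSG00000099851. Sham was higher at *Wtap* (11.3 against 8.79) and at the end of *Zc3h13* (3.81 against 2.37). The *Mettl16* row overlapped a sham peak only and the exon 5 row of *Zc3h13* a CCI peak only. The *Zc3h13* row of 2717 bp overlapped CCI peaks at 321 and 20.4 and a sham peak at 201. The *Rbm15b* row overlapped 4 CCI peaks from 19.3 to 37.2 and 2 sham peaks at 112 and 22.2. These last rows had no single direction, since the lists cut the peaks differently. *Rbm15* and *Alkbh5* had no row, although their log2 ratios of -0.80 and -0.78 lay farther from 0 than those of *Wtap* (-0.36) and *Fto* (0.42), which had one.

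The height of a fold enrichment went with the length of the peak. In CCI, the median was 2.67 for peaks of up to 100 bp, 5.82 for those over 200 and up to 300 bp, 10.8 over 500 and up to 1000 bp, and 17.1 above 1000 bp. In sham, the medians of the same classes were 2.71, 5.43, 10.9 and 17.6. The *Zc3h13* peaks of 1614 and 2717 bp and the *Rbm15b* peak of 3196 bp were the only member peaks above 1000 bp. Their values of 321, 201 and 112 nevertheless lay above the middle 50% of such long peaks (10.8 to 30.3 in CCI and 10.8 to 32.5 in sham). Over all genes, a sham peak that overlapped 2 or more CCI peaks lay above the highest of them in 43.6% of cases (median log2 ratio -0.11). The *Rbm15b* peak at 112 did so and the *Zc3h13* peak at 201 did not. Among pairs with the same borders, sham was the higher in 43.4% (median log2 ratio of sham over CCI -0.07).

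**Figure D4:**
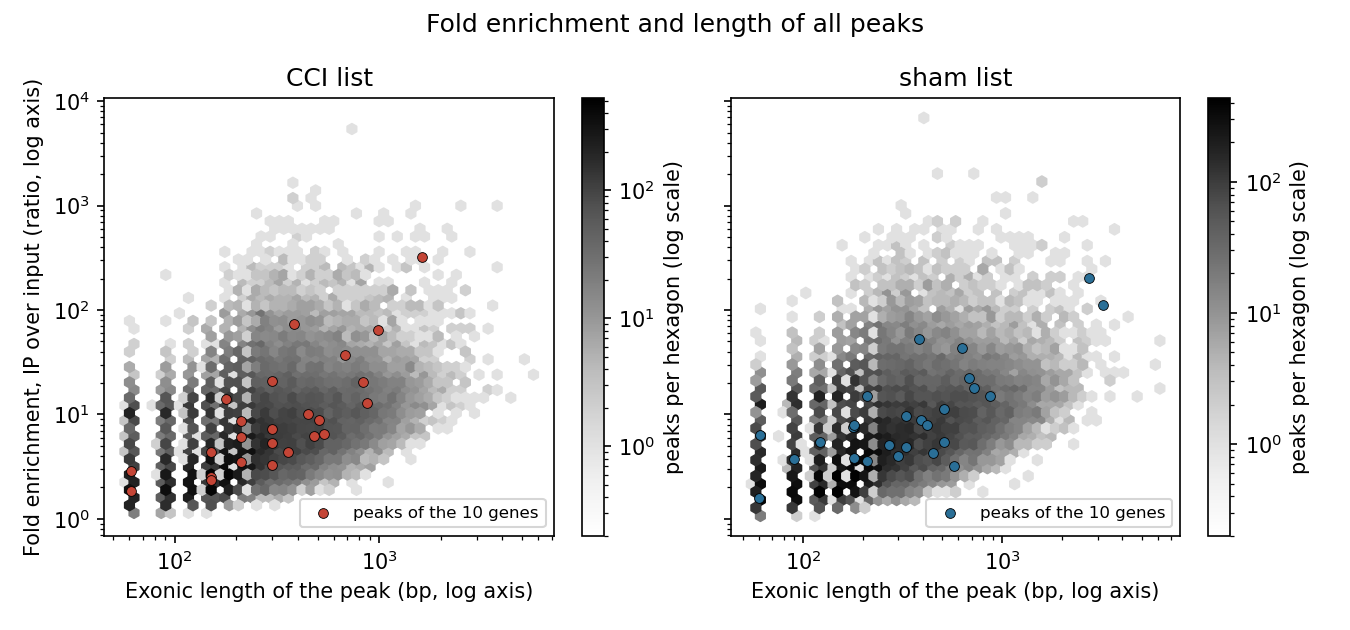
Fold enrichment against exonic length (both log axes) of all peaks of the CCI list and the sham list, in grey by the number of peaks per hexagon, with the peaks of the 10 genes as coloured points. Fold enrichment is higher for longer peaks, and the points above 1000 bp (321 in CCI, 201 and 112 in sham) are those of *Zc3h13* and *Rbm15b*.

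By region, the roles were as follows. In sham, 11 of the 17 peaks of the regulatory subunits were annotated by the authors to an exon, 4 to a 3′-UTR and 2 to a 5′-UTR. In CCI, the counts were 10, 4 and 1 of 15. Of the erasers' peaks, 3 of 7 in sham and 5 of 7 in CCI lay in a 3′-UTR, as did all peaks of *Mettl16* (3 and 2). Over all peaks, 35.1% in sham and 35.5% in CCI lay in an exon, and 48.9% and 49.8% in a 3′-UTR. The member counts are small. In both lists the exon counts include overlapping *Cbll1* rows annotated to an exon of another gene, ENSMUSG00000099851. Those of the erasers include an *Fto* row in each list annotated to ENSMUSG00000110325. In sham they also include the *Fto* exon 3 peak, named *Gm45427* in CCI, and a 61 bp *Alkbh5* peak with no partner. The erasers' 3′-UTR count in CCI includes 2 *Fto* peaks of 61 bp with no partner (1.86 and 2.90). No eraser pair had another region in each list. For the exon share of all member peaks, the 95% Wilson interval ran from 37.3 to 72.4% in sham (15 of 27) and from 31.4 to 68.6% in CCI (12 of 24), for counting error only. Peaks of 1 gene share its RNA, and 2 of the 20 pairs (in *Wtap* and *Zc3h13*) had another region in each list, with borders 30 bp apart.

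Of 20 other genes of the pathway (the remaining writer subunit *Virma*, other RNA methyltransferases, enzymes of the methyl donor and readers of m6A), 13 had peaks in both lists, 14 in sham and 6 in neither. Over all protein-coding RefSeq genes, 54.9% had a row in either list. A row in the differential table was held by 5 of the 20, beside 25.3% over all gene names. Their 37 pairs had a median log2 ratio of 0.18, with 23 higher and 14 lower in CCI. Past a fold of 2 were 3 pairs higher in CCI (8.11%) and 0 lower, beside 8.59% and 7.25% over all pairs. They lay in *Virma*, *Ythdc1* and *Fmr1*, the latter 2 named after their values were seen. *Virma*, the remaining writer subunit, had 5 CCI and 8 sham peaks, mostly in exons like those of *Zc3h13*. Its exon 8 peak with the same borders stood at 14.7 in CCI and 8.07 in sham (log2 ratio 0.87), and the next one, with different borders, at 10.9 and 3.55 (1.62). Its other 3 pairs had log2 ratios of 0.15, -0.20 and -0.26, and the median over the 5 was 0.15. *Mat2a*, the enzyme that makes the methyl donor and a known target of METTL16, was lower in CCI at each of its 3 pairs. At the transcript start it stood at 13.9 in CCI and 21.9 in sham in the wider of 2 overlapping rows (log2 ratio -0.66), and at the gene end at 3.85 and 6.39 (-0.73).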

How the data were processed

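Poly(A) RNA of 1 CCI and 1 sham spinal cord sample was sequenced as IP and input. The methods name Cutadapt, bowtie and MACS2, while the submitters' processing notes list fastp, HISAT2, HOMER and ChIPseeker with build GRCm38, and the column names are those of exomePeak. The deposited fold enrichment is a ratio of IP over input made by the authors, and its depth is unknown. The deposited log10 false discovery rate of a peak was handled as a score, since some values are minus infinity. The differential table also holds the authors' own log2 change, p-value and false discovery rate between the groups, which were not used.

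Peaks were compared by exonic blocks (at least 1 bp shared), and mutual best partners formed pairs. Of equally good partners the first was taken. With 1 library per group there was no test, and an absolute log2 ratio of at least 1 served as the call. Shares have 95% Wilson intervals. By rule, values are given for all members, *Virma* and *Mat2a*. Other genes are named where a member's peak, a neighbour or a small count called for it, after their values were seen. Members and lists were chosen with earlier results of these data known. Pairing was tested on simulated data. RefSeq (GRCm38.p6) gave spans, symbols and start windows, and peak sequences were not analysed here. Scripts ran in Python 3.11.15 with pandas 2.3.3, numpy 2.4.6, matplotlib 3.10.9 and scipy 1.17.1. Alternatives covered filters, overlap, counting by position, the fold and the choice of pair.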

Additional observations from a re-analysis of the deposited data

How the results depend on the processing

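No paired analysis was possible because CCI and sham had 1 library of each kind. Of 49 alternatives, 33 stayed within 1.5 times the count, within 0.1 on the log2 scale or within the counting error. Same borders, the member's name in both lists and replacing the tied partner were chosen after seeing the data. The median log2 ratio over the members' pairs went from 0.06 to 0.19 where partners shared at least 50% of each peak, with the member's name in both lists, or with the tied *Zc3h13* partner replaced, and to 0.44 over the 6 pairs with the same borders. Pairs past the fold went from 0 higher and 1 lower to 5 higher and 4 lower at an absolute log2 ratio of 0.5 (41.5% of all pairs pass it either way), and to 0 lower with the tied partner replaced.

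The log2 ratio of a gene's strongest pair by the sham value turned with the choice of pair in 3 genes. Taken over all pairs as a median, *Zc3h13* went from 0.68 to -0.68 and *Mettl16* from 0.19 to -0.10, while *Alkbh5* went from -0.78 to 0.55 when the strongest pair was chosen by the CCI value. Other moves kept the direction: by the median, *Wtap* went from -0.36 to -0.06, *Fto* from 0.90 to 0.42 and *Alkbh5* to -0.17, and *Rbm15* went from -0.80 to -0.23 under both choices. These turns follow from pairs of 1 gene that go opposite ways, and no single ratio stands for a gene. By position, with rows of any name, the members had 30 CCI and 28 sham peaks. Without read counts the error of each ratio is unknown.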

Other observations

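The names and regions of partners seldom differed in the tables as a whole. Of all 27380 pairs, 252 (0.92%) carried different gene names in CCI and sham, and 740 (2.70%) different regions, beside 1 (the exon 3 site of *Fto*) and 2 of the 20 member pairs. A tie between partners occurred in 119 pairs (0.435%). Peaks without a partner were short, with a median of 120 bp in either list, beside 241 bp in CCI and 269 bp in sham for those with one.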
